A study of Homo sapiens with 4 samples.

Results

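A set of 10 genes that mark stem cells or hold the pluripotent state was followed after TET1 overexpression in HeyC2 and SKOV3, both lines of ovarian cancer cells. They are POU5F1 (the gene of OCT4), NANOG, SOX2, SALL4, KLF4, MYC, LIN28B, ALDH1A1, CD44 and PROM1 (the gene of CD133). The genes were chosen as a list of symbols, and all 10 were found among the 26506 gene symbols of the data. Each line had been transfected with 3 μg of a pCMV6 plasmid, which drives its insert from a strong viral promoter, either with TET1 (labelled TET1 overexpressed) or empty (control), and both cultures were held under 400 μg/ml Geneticin. The control cells are labelled Wild-type but carry the empty plasmid and had the same selection. RNA was sequenced from 1 library per condition, 4 in all, so no difference here has a replicate check and no test between conditions was run. Whether the selected cells were a clone or a pool is not given in the sources used here. In RNA of a whole culture, fewer cells of a type and less RNA per cell cannot be told apart.

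POU5F1, NANOG, SOX2 and SALL4 encode DNA-binding factors that hold embryonic stem cells in an undifferentiated state, and POU5F1, SOX2, KLF4 and MYC together can return differentiated cells to pluripotency. LIN28B binds the precursors of let-7 microRNAs and blocks their maturation. ALDH1A1 (an enzyme that oxidizes retinaldehyde), CD44 (the receptor for hyaluronan) and PROM1 (a glycoprotein of membrane protrusions) are markers by which stem-like cells are often sorted from ovarian tumors. TET1 oxidizes methylated cytosine, mostly where it stands before guanine (CpG), and is itself abundant in embryonic stem cells.

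Expression was given as FPKM, fragments scaled to transcript length and sequencing depth, so that levels of different genes can be compared. The TET1 columns had been multiplied so that GAPDH equals its control value, by 3.23 in HeyC2 and 1.35 in SKOV3. All FPKM below have this factor removed unless called deposited, and a change is log2(FPKM + 1) in TET1 minus control, minus the median of all genes with a mean of at least 1 FPKM in the line (relative log2 change). That median was 0.06 over 11894 genes in HeyC2 and 0.19 over 13013 genes in SKOV3. A gene was called higher or lower at 1.5-fold on this scale. GAPDH itself, at 5417 and 1675 FPKM in HeyC2 and 2248 and 1671 in SKOV3 with the factor removed, was lower with TET1 in both lines, at -1.75 and -0.62. Depth was estimated at 6700000 to 7520000 fragments per library, at which 1 fragment on a member was worth between 0.03 and 0.12 FPKM. Intervals below are 95% exact intervals from these estimated fragments and cover counting error only.

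The targeted gene was higher in the library labelled TET1 in both lines. TET1 was at 0.20 FPKM in the HeyC2 control and 0.52 in HeyC2 TET1 (about 14 and 33 fragments), and at 0.43 and 1.80 in the SKOV3 pair (about 29 and 114). By the rule used here it was called higher in SKOV3 but not in HeyC2, where it is under the filter of 1 FPKM and its relative log2 change was 0.28, although the counting interval of the ratio, 1.32 to 5.14, left out 1. ERBB2, whose locus is amplified in SKOV3, was at 1282 and 1464 FPKM in the SKOV3 libraries and at 20.1 and 23.8 in HeyC2. The Müllerian factor PAX8 and the keratins KRT8 and KRT18 were present in all 4 libraries, while the T cell marker CD3E was at 0 in all. Of 13 epithelial and Müllerian genes listed, 7 had a mean of at least 1 FPKM in HeyC2, against 11 in SKOV3. CDH1, MUC16 and WT1 were at 0 in both HeyC2 libraries. EPCAM was at 0.09 FPKM in HeyC2 control and 0.38 in HeyC2 TET1, against 15.4 and 16.1 in SKOV3. Of 5 leukocyte markers, 2 passed the filter in HeyC2 and both were higher with TET1, CD68 at 56.2 and 90.2 FPKM (0.61) and LYZ at 1.02 and 2.84 FPKM (0.87), while PTPRC, which marks all leukocytes, was at or under 0.28 FPKM in every library. The endothelial marker CDH5 was at 18.9 and 94.6 FPKM in HeyC2 (2.21), while PECAM1 was at or under 0.09 in every library. The keratins KRT7 and KRT19 were at 1537 and 255 FPKM in the SKOV3 control but at 22.0 and 0.46 in SKOV3 TET1. Of 5 fibroblast markers, 3 passed the filter in SKOV3, through the TET1 library alone, and so were higher there, their list summing to 1.04 FPKM in control and 34.7 in TET1, most of it COL1A1, while DCN was at 0 in SKOV3 TET1. The part of these shifts in the members' values was not tested. Across 14387 genes, which are not replicates, log2 levels had a Pearson r of 0.97 between the HeyC2 libraries, 0.92 between the SKOV3 libraries, and 0.75 to 0.79 between lines.

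The members split into 3 tiers of expression. CD44, MYC and KLF4 were expressed in all 4 libraries, between 7.93 and 383 FPKM. POU5F1 reached 1 FPKM only in SKOV3, and ALDH1A1 only in SKOV3 TET1. NANOG, SOX2, SALL4, LIN28B and PROM1 stayed under 0.5 FPKM in every library. In the HeyC2 control 6 of 10 members were above 0 and 3 reached 1 FPKM, while 57.2% of all genes were above 0 and 43.96% reached 1 FPKM. With TET1 the numbers in HeyC2 were 9 and 3, with 58.8% and 45.2% of all genes. In SKOV3 they were 7 and 4 without TET1, with 60.9% and 46.2% of all genes, and 6 and 5 with it, with 63.9% and 50.4%.

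**Figure D1:**
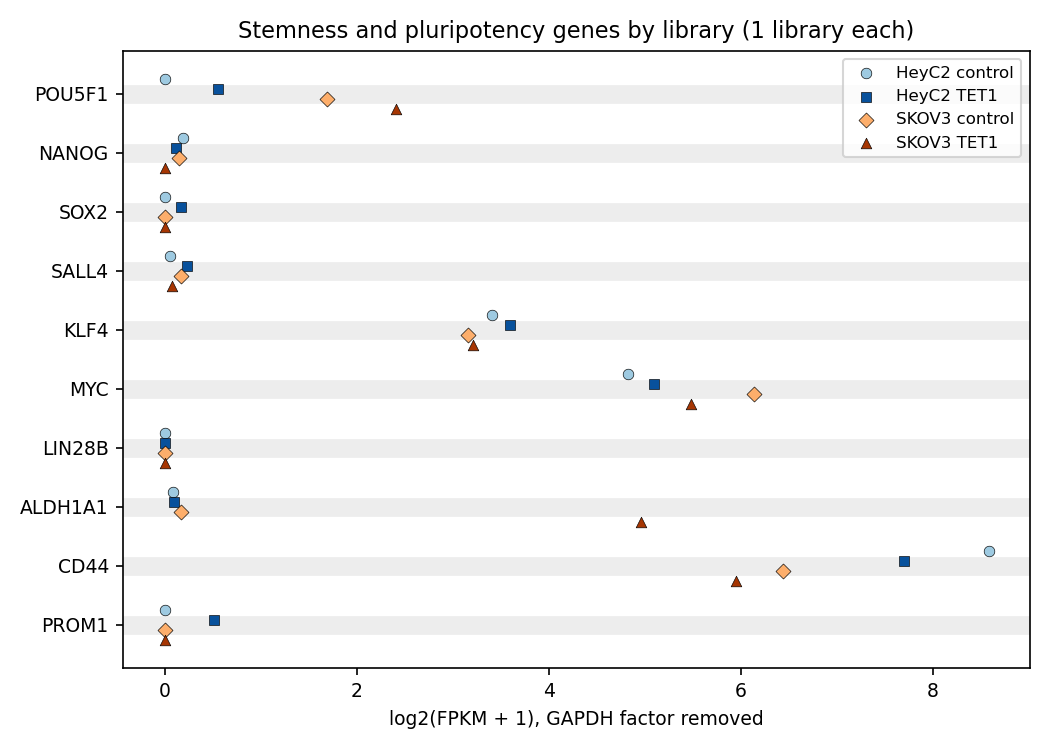
Level of each of the 10 members in each library, as log2(FPKM + 1) with the GAPDH factor removed; circles and squares are HeyC2 control and TET1, diamonds and triangles SKOV3 control and TET1, 1 library each. CD44, MYC and KLF4 lie far to the right in all 4 libraries, and ALDH1A1 stands at the left in 3 libraries and near 5 in SKOV3 TET1.

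With TET1, no member was called higher in HeyC2 and 1 was called lower, CD44, of the 3 that passed the filter of a mean of 1 FPKM (CD44, MYC and KLF4). Over all genes tested in HeyC2, 12.5% were called higher and 9.17% lower, 21.7% in all. In SKOV3, 1 of the 5 members that passed was called higher (ALDH1A1) and 2 were called lower (MYC and CD44), with 20.7% of all genes higher and 18.2% lower, 38.8% in all. At 2-fold, 0 members were called in HeyC2, where 6.94% of all genes were, and 1 in SKOV3, ALDH1A1, where 16.6% were. POU5F1 and KLF4 also passed and were not called. ALDH1A1 passed only through the TET1 library, where it is high, so its call was fixed by its passing. CD44 was the only member called in the same direction in both lines, and 2.54% of the 11134 genes that passed in both lines were lower in both. No member was higher in both, as 3.56% of genes were. Without the subtraction of the all-gene median, 3716 genes were higher and 1499 lower in SKOV3, against 2691 and 2362 with it, and on a TPM scale without it 4276 were higher and 1432 lower. Without the subtraction, CD44 in SKOV3 lost its call, with -0.49 (-0.44 in TPM), and POU5F1 was called higher, with 0.71 (0.86 in TPM).

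**Figure D2:**
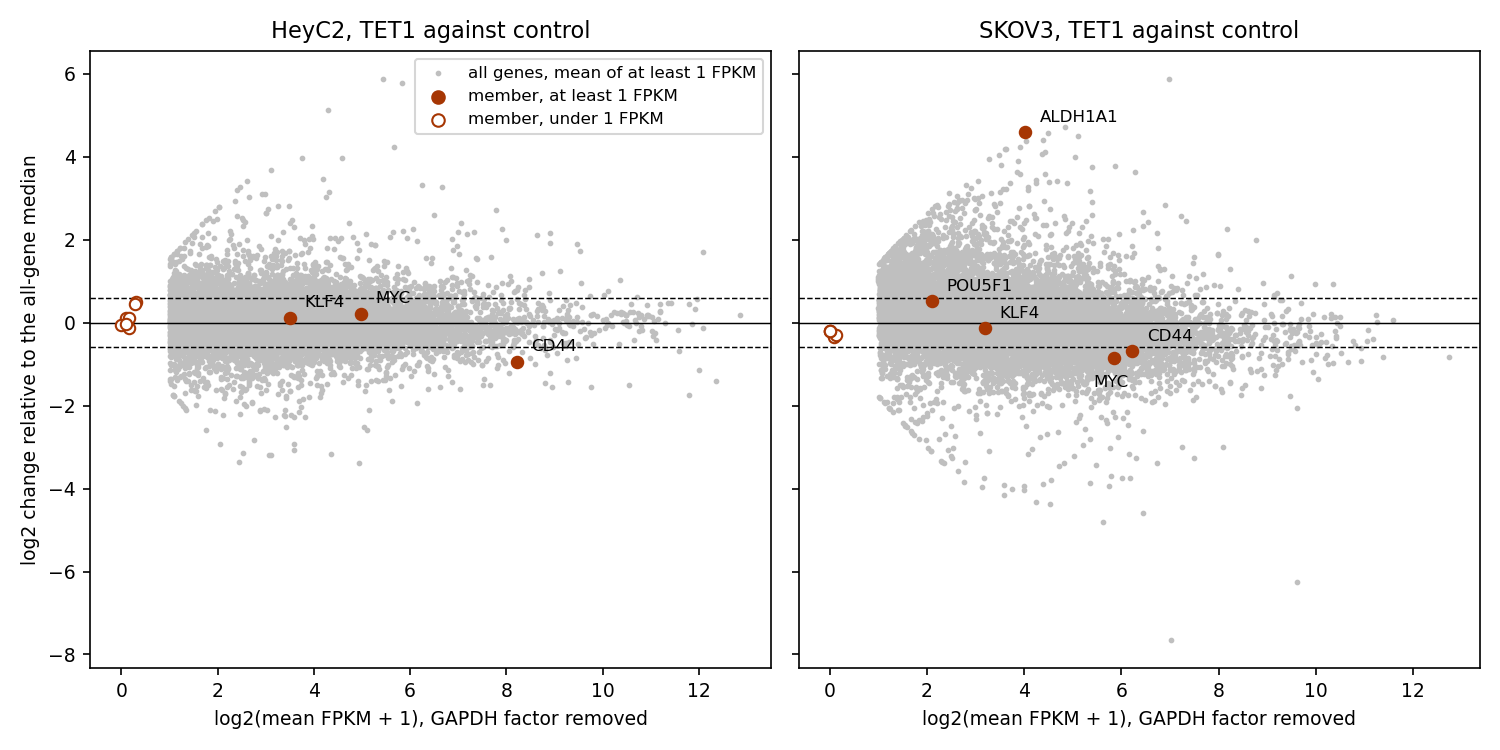
Relative log2 change in TET1 against control (vertical) by mean level of the 2 libraries (horizontal, log2(mean FPKM + 1)) for HeyC2 and SKOV3; grey points are all genes that passed the filter, filled points members that passed, open points members under 1 FPKM, dashed lines 1.5-fold. ALDH1A1 at 4.60 is among the highest points in SKOV3, and CD44 lies under the lower line in both lines.

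Promoter sequences are shown for ALDH1A1 and CD44, the members with the largest called changes, and for ALDH1A3, the sister gene of ALDH1A1 that is described with it. Each is the 250 bases before the RefSeq start site on GRCh38.p14, 5′ to 3′ on the gene's strand, with every CG in capitals.
ALDH1A1 (chr9:72953054-72953303, minus strand): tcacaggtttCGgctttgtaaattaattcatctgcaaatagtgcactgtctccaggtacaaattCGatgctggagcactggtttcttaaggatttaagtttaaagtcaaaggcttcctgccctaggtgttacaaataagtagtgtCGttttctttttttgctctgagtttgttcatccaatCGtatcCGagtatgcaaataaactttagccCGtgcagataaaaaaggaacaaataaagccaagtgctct
ALDH1A3 (chr15:100879581-100879830, plus strand): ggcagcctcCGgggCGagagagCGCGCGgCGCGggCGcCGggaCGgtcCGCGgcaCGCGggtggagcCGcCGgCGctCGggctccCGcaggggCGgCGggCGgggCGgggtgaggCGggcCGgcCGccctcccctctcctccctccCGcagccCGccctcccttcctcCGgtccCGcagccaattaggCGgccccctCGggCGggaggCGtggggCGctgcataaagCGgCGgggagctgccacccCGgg
CD44 (chr11:35138921-35139170, plus strand): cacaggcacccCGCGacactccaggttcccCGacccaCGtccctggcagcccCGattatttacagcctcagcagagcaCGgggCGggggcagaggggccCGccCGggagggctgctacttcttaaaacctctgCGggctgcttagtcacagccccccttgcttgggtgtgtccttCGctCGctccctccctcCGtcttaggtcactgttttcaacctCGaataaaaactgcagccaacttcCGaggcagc

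These stretches hold 6 CG in ALDH1A1, 38 in ALDH1A3 and 15 in CD44. Over the full windows of 300 bases (250 before and 50 after the start), ALDH1A1 had 7 CG, and 63.2% of the 35116 RefSeq windows had at least as many. ALDH1A3 had 46, a count reached by 2.89% of windows, and CD44 had 18, reached by 44.5%. The median window held 14 CG, and 96.0% held at least 1. CG is its own reverse complement, so the count is the same on both strands. Of the other members, the windows of NANOG held 5, SOX2 20 and KLF4 33 CG. LIN28B had 37 and 8 in its 2 windows, and PROM1 between 6 and 32 in its 4. POU5F1, MYC and SALL4 had no window in the table. The counts describe the reference sequence, and methylation was not measured in these libraries.

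ALDH1A1 (GRCh37, chromosome 9, 75515587 to 75695358) was close to undetected in 3 of the 4 libraries. It was at 0.06 FPKM in HeyC2 without TET1 and 0.07 with it, about 1 fragment each, and at 0.13 in the SKOV3 control, about 2 fragments. In SKOV3 TET1 it was at 30.2 FPKM (40.7 deposited), about 388 fragments. The SKOV3 TET1 library thus stands apart from the other 3, which cannot be told from each other at this depth. The ratio of FPKM in SKOV3 was 204 relative to the all-gene median, with an interval of 49.8 to 1502 that is wide because the control holds about 2 fragments. The relative log2 change was 4.60, rank 3 from the highest of the 13013 genes. Of the 14251 genes under 1 FPKM in the SKOV3 control, 36 reached 10 FPKM in SKOV3 TET1, and ALDH1A1 ranked 5 among them by level. In HeyC2 the ratio was 1.14 with an interval of 0.01 to 84.6, so no difference in either direction could be seen.

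The other aldehyde dehydrogenases were measured beside it. ALDH1A3 (chromosome 15, 101417919 to 101456831), which oxidizes retinaldehyde as ALDH1A1 does, was at 642 FPKM in control HeyC2 cells and 244 with TET1. In SKOV3 it was at 13.5 FPKM in the control and 1.62 in TET1. It was lower with TET1 in both lines, 2.74-fold (interval 2.65 to 2.82) in HeyC2 and 9.50-fold (6.68 to 13.7) in SKOV3, relative to the all-gene median. ALDH1A2, the other gene of this group, was at or under 0.20 FPKM in all libraries. Of the summed FPKM of ALDH1A1, ALDH1A2 and ALDH1A3, ALDH1A1 held 0.95% in control SKOV3 cells and 94.3% with TET1. In HeyC2 ALDH1A3 held 99.99% and 99.97% of the sum in control and TET1. The sum itself was 642 FPKM before and 244 with TET1 in HeyC2, and 13.7 and 32.1 FPKM in SKOV3.

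Of the 18 family members other than ALDH1A1, 11 passed the filter in HeyC2, of which 1 was higher and 3 were lower, with a median relative log2 change of -0.14 that was 0.01 with no filter on low values. The gene called higher, ALDH3B2, passed only through the TET1 library. The median of all genes is 0 by construction. In SKOV3 14 passed, 3 were higher and 2 lower, with a median of 0.18 that was between 0.17 and 0.44 over the alternatives. ALDH3A2, which oxidizes long-chain fatty aldehydes, had opposite signs in the lines, with -0.68 in HeyC2 and 0.70 in SKOV3. ALDH16A1 was at -0.69 and -0.48. ALDH2, the mitochondrial enzyme that clears acetaldehyde and named after its values were seen, was at 1.64 FPKM in control SKOV3 cells and 16.7 with TET1, while in HeyC2 it was at 0 in the control and 0.39 in TET1.

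**Figure D3:**
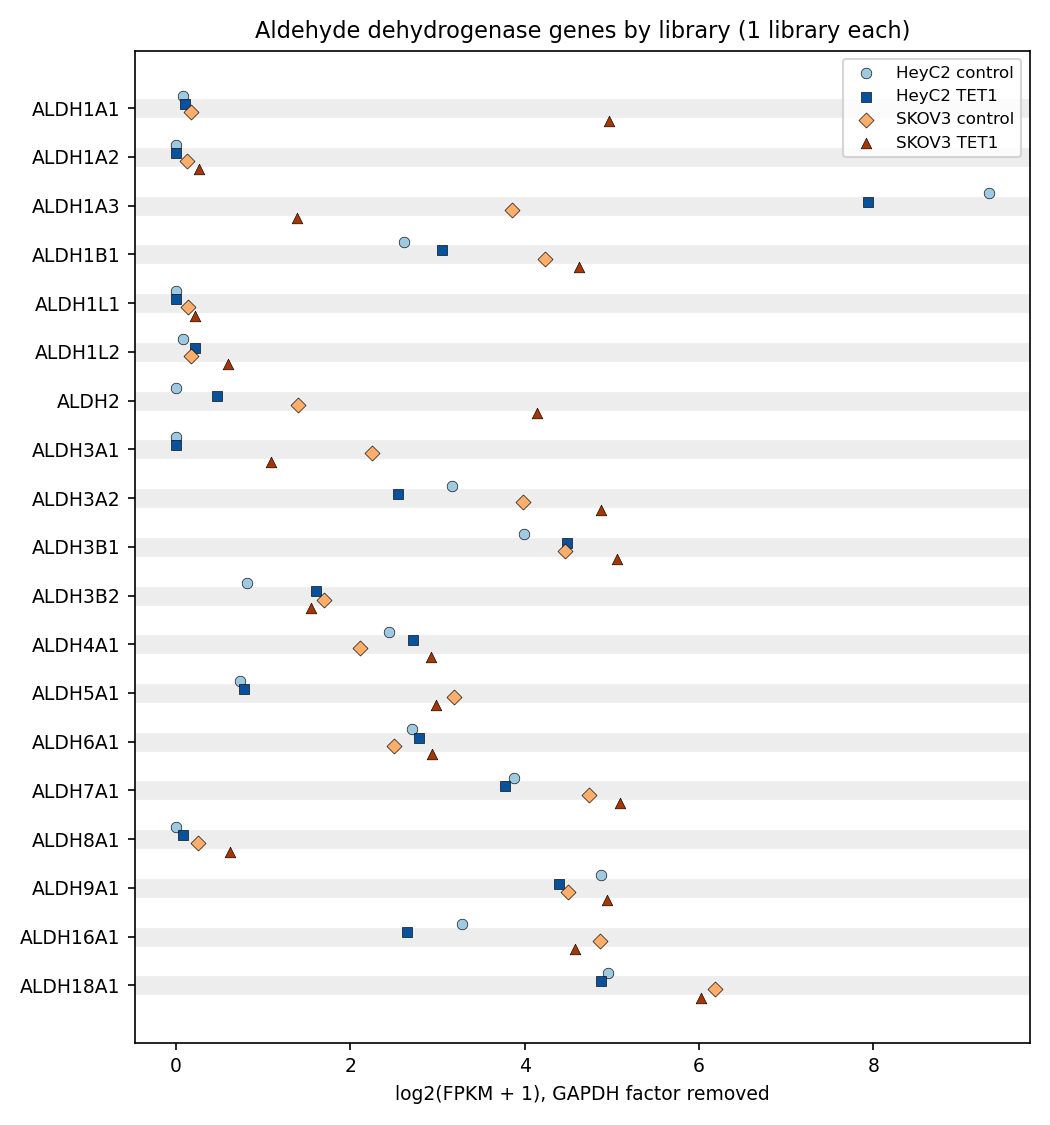
Level of ALDH1A1 and the 18 other aldehyde dehydrogenase genes of the list in each library, as log2(FPKM + 1) with the GAPDH factor removed, 1 library per symbol. In SKOV3 the TET1 symbol lies right of the control for ALDH1A1 and left of it for ALDH1A3, and ALDH1A3 is the highest gene of the plot in both HeyC2 libraries.

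CD44 (chromosome 11, 35160429 to 35253949) was the most abundant member in every library and was lower with TET1 in both lines. In HeyC2 it was at 383 FPKM in control cells and 207 with TET1 (670 deposited), about 15126 and 7299 fragments. In SKOV3 it was at 86.3 FPKM in the control and 61.2 in TET1 (82.3 deposited), about 3228 and 2163 fragments. Both HeyC2 levels were above both SKOV3 levels. Relative to the all-gene median the ratio was 1.92-fold lower (interval 1.87 to 1.98) in HeyC2 and 1.61-fold lower (1.52 to 1.70) in SKOV3. The relative log2 changes were -0.94 and -0.68, below which lay 3.23% of the genes tested in HeyC2 and 14.6% in SKOV3. A list of 18 genes that nearly all cells express had a median of -0.16 in HeyC2 and -0.57 in SKOV3. The part of that wider difference in the CD44 values was not tested. As deposited, in a column multiplied by 3.23, CD44 in HeyC2 is higher in TET1 than in control, and lower only relative to other genes. With that factor removed, CD44 was lower also without the all-gene median subtracted, at -0.88. FPKM add up all transcripts of a gene, so the splice variants of CD44, 38 transcripts in the annotation, cannot be told apart.

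Of 20 genes for ligands, splicing factors, shedding enzymes and cytoskeletal linkers of CD44, 13 passed in each line. In HeyC2, 0 were higher and 4 lower, with a median relative log2 change of -0.43. In SKOV3, 1 was higher and 4 lower, with a median of -0.45 that was between -0.47 and -0.16 over the alternatives. Of the 4 lower, ESRP2 passed only through the control library. The hyaluronan receptor gene HMMR was lower in both lines, with -1.34 in HeyC2 and -0.62 in SKOV3. EZR, whose product ezrin ties CD44 to actin, was at 527 FPKM in control SKOV3 cells and 179 with TET1 (relative log2 change -1.74), with 0.07 in HeyC2. SPP1, the gene of the CD44 ligand osteopontin, was the gene called higher in SKOV3, with 110 FPKM in the control and 396 in TET1, and was at -0.64 in HeyC2. The hyaluronan synthase gene HAS2 was at 0 in all 4 libraries, and HAS1 was at or under 0.39 FPKM. HAS3, another synthase gene, was at 4.80 FPKM without and 2.81 with TET1 in HeyC2, and at 20.2 and 28.2 in SKOV3.

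MYC (chromosome 8, 128747680 to 128755197), which drives growth and ribosome production, was at 27.4 FPKM in control HeyC2 cells and 33.4 with TET1 (108 deposited), about 730 and 792 fragments. In SKOV3 it was at 69.4 FPKM in the control and 43.8 in TET1 (59.0 deposited), about 1753 and 1043 fragments. Both SKOV3 libraries were thus above both HeyC2 libraries. The relative log2 change was 0.22 in HeyC2, under the 1.5-fold limit although the counting interval of the ratio, 1.06 to 1.30, left out 1, and -0.84 in SKOV3. In SKOV3 the ratio was 1.81-fold lower than the all-gene median (interval 1.68 to 1.96), and 9.85% of the genes tested lay lower. A test of the difference between the lines was not possible with 1 library per group.

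Of the 22 MYC target genes of the list, which include genes for ribosome assembly, nucleotide supply and translation among others, all passed in both lines. In HeyC2, 2 were higher and 2 lower, with a median of -0.03. In SKOV3, 0 were higher and 14 lower, with a median of -0.80 that stayed between -0.84 and -0.56 over the alternatives. PPAN and RRS1, both needed to build ribosomes, were at -1.56 and -1.50 in SKOV3 and at -0.13 and 0.21 in HeyC2. TFRC, the transferrin receptor gene, was at -1.53 in SKOV3 and 0.72 in HeyC2. The list of 18 genes that nearly all cells express moved in the same direction in SKOV3, with 0 higher and 8 lower. Its median was -0.57 in SKOV3 (-0.61 to -0.33 over the alternatives) and -0.16 in HeyC2, with 2 higher and 3 lower. TFRC belongs to both lists. The part of this wider difference in the value of MYC and in the count of MYC targets was not tested.

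Of the 12 genes of the MYC network, which encode partners and antagonists of MYC, 9 passed in HeyC2 and 0 were called, with a median of -0.19 (-0.21 to -0.07 over the alternatives). In SKOV3, 10 passed, 4 were higher and 1 lower, with a median of 0.43 that was between 0.14 and 0.69 over the alternatives. The MYC antagonist genes MNT and MXD4 were higher in SKOV3 TET1, MNT at 9.03 against 2.59 FPKM (relative log2 change 1.29) and MXD4 at 33.9 against 13.4 FPKM (1.09). MYCL and MLXIPL, named after their values were seen, were the others called higher, with 1.01 and 1.29, but both passed the filter only through the TET1 library, with 0.78 and 0.36 FPKM in the control. The antagonist gene MXD3 was called lower, with -0.96, and the antagonist gene MXI1, at 0.56, was not called. MXD1, another antagonist gene, was under the filter in SKOV3. The shared partner MAX was between 15.4 and 16.8 FPKM in all 4 libraries.

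KLF4 (chromosome 9, 110247133 to 110252763), a zinc finger factor of epithelial cells and of reprogramming, differed least of the expressed members. Its FPKM was 9.65 without and 11.1 with TET1 in HeyC2, on about 200 and 205 fragments. In SKOV3 it was 7.93 without and 8.29 with TET1, on about 156 and 153. The intervals of each pair overlapped. Relative to the all-gene median the ratio was 1.10 (interval 0.91 to 1.35) in HeyC2 and 0.92 (0.73 to 1.15) in SKOV3, so a change within these bounds could not be seen. The relative log2 change in SKOV3 was -0.13 and turned to 0.06 without the median subtracted.

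Of 37 other genes of the SALL, SOX and KLF families, 19 passed in HeyC2, with 2 higher, 5 lower and a median of -0.04, which was between -0.05 and 0.19 over the alternatives. In SKOV3 20 passed, with 3 higher, 7 lower and a median of -0.24, which was between -0.41 and 0.12 over the alternatives. SALL1, lower in HeyC2, passed only through the control library, and KLF9, higher in SKOV3, only through the TET1 library. The largest differences were in relatives of KLF4 and SOX2. KLF6 was at 125 FPKM in control SKOV3 cells and 14.98 with TET1 (-3.17), with 0.05 in HeyC2. SOX4 was at 20.3 FPKM in control SKOV3 cells and 153 with TET1 (2.66), and was also higher in HeyC2 (0.77). SOX9, a factor of progenitor cells in several epithelia, was at 20.1 FPKM in control HeyC2 cells and 1.88 with TET1 (-2.93), and was at 0.55 in SKOV3.

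POU5F1 (chromosome 6, 31132114 to 31148508) was higher in both SKOV3 libraries than in both HeyC2 libraries. In HeyC2 it was at 0 without TET1 and at 0.47 FPKM with it, about 4 fragments. In SKOV3 it was at 2.24 FPKM without and 4.30 with TET1, about 20 and 35 fragments. The ratio in SKOV3 was 1.68 relative to the all-gene median, with an interval of 0.92 to 3.01 that includes 1. The relative log2 change was 0.52, under the 1.5-fold limit, and between 0.49 and 0.86 over the alternatives, some of which call it higher. POU5F1 has processed copies in the genome that share its sequence. Of these, POU5F1P3 was at 0.32 and POU5F1P4 at 0.49 FPKM in HeyC2 TET1. In the HeyC2 control POU5F1B was at 0.38 and POU5F1P3 at 0.15 FPKM, while POU5F1B was at 0 in HeyC2 TET1. Neither the 0 of POU5F1 in the HeyC2 control nor its fragments in HeyC2 TET1 can thus be assigned with certainty. All of these copies were at 0 in the SKOV3 libraries.

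NANOG, SOX2, SALL4 and LIN28B were at the floor of detection. NANOG (chromosome 12, 7940390 to 7951742) was at 0.14 FPKM without and 0.09 with TET1 in HeyC2, and at 0.11 without and 0 with TET1 in SKOV3. The largest of these rests on about 5 fragments. SALL4 (chromosome 20, 50398870 to 50419060) was at 0.04 and 0.18 FPKM in HeyC2 and 0.13 and 0.05 FPKM in SKOV3, on about 2 to 6 fragments, and the ratio in HeyC2 was 4.31 with an interval of 0.58 to 32.8. SOX2 (chromosome 3, 181429713 to 181432224) was at 0 in 3 libraries and at 0.13 FPKM in HeyC2 TET1, about 2 fragments. SOX2 lies within the long noncoding gene SOX2-OT, which was at 0 in that library. LIN28B (chromosome 6, 105384491 to 105531207) was at 0 in all 4 libraries. On this gene 3 fragments would be worth 0.076 to 0.085 FPKM, and the exact upper bounds for a count of 0 were 0.093 to 0.104 FPKM. The genes expressed in nearly all cells were above 0 in every library (0 of 18 at 0).

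PROM1 (chromosome 4, 15964699 to 16086001) was at 0 in the HeyC2 control and in both SKOV3 libraries, and at 0.43 FPKM (1.39 deposited) in HeyC2 TET1, about 11 fragments. The interval in HeyC2 TET1 was 0.21 to 0.76 FPKM, and in the HeyC2 control 3 fragments would be worth 0.10 FPKM (exact upper bound for a count of 0, 0.128 FPKM). In all, 4 members were at 0 in the HeyC2 control, and 3 of them, POU5F1, SOX2 and PROM1, were above 0 in HeyC2 TET1, POU5F1 with the doubt given above. Of all genes at 0 in the HeyC2 control, 10.3% were above 0 in HeyC2 TET1. In SKOV3, 0 of 3 such members were above 0 with TET1, NANOG was at 0 with TET1 only, and the share over all genes was 14.7%. Among POU5F1, SOX2 and PROM1, only PROM1 had an interval in HeyC2 TET1 that lay wholly above the exact upper bound of the HeyC2 control.

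Other genes of the pluripotency network were also measured. Of 21 such genes, 11 were at 0 in each HeyC2 library, 8 in control SKOV3 cells and 7 with TET1, and DPPA2, DPPA4, UTF1, GDF3 and PRDM14, which are typical of pluripotent cells, were at 0 in all 4. In SKOV3 the share of the 21 genes above 0 was thus close to that of all genes given above. Only 5 passed the filter in HeyC2, with 2 higher (KLF5 and TERT) and 2 lower (DNMT3B and TBX3), and 4 in SKOV3, with 1 higher (DNMT3B) and 2 lower (KLF2 and KLF5). TERT, the telomerase gene, and TBX3 were named after their values were seen, and TERT was at 1.45 FPKM without and 5.33 with TET1 in HeyC2. DNMT3B, a de novo DNA methyltransferase that is high in embryonic stem cells, was at 8.59 FPKM in control SKOV3 cells and 49.4 with TET1, and at 5.52 and 2.74 in HeyC2 (-0.86). KLF5 had opposite signs as well, with 0.86 in HeyC2 and -1.45 in SKOV3. The summed FPKM of 8 pluripotent stem cell markers, POU5F1, NANOG and SOX2 among them, was 1.23 without and 1.93 with TET1 in HeyC2 and 3.30 and 6.09 in SKOV3, and most of the SKOV3 sums is POU5F1.

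LIN28B stands in a pathway that could be followed through its other genes. Of 16 genes of let-7 processing and let-7 targets, 13 passed in each line. In HeyC2, 1 was higher and 4 lower, with a median of -0.27, and in SKOV3 1 was higher and 3 lower, with a median of -0.24 that was 0.00 in TPM. The let-7 target IGF2BP3 was at -0.49 in HeyC2 and -0.94 in SKOV3. HMGA1, a chromatin protein gene, was at 396 FPKM in control SKOV3 cells and 141 with TET1 (-1.67), and at 0.47 in HeyC2. DGCR8, which with DROSHA cuts primary microRNAs, was at 0.73 in HeyC2 and -0.50 in SKOV3. LIN28A, the sister of LIN28B, was at or under 0.04 FPKM in all libraries.

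Among 24 other markers of cancer stem cells, 15 passed in HeyC2, with 3 higher, 2 lower and a median of -0.01 (-0.19 to 0.12 over the alternatives), and 19 in SKOV3, with 4 higher, 3 lower and a median of 0.00 (-0.06 to 0.28). Of the 3 lower in SKOV3, BST1 passed only through the control library. LGR5, the receptor that marks intestinal and ovarian surface stem cells, was higher in both lines, at 10.9 FPKM without and 25.1 with TET1 in HeyC2 (1.07) and at 0.03 and 2.75 in SKOV3 (1.67), where it passed only through the TET1 library. ITGA6, an integrin gene, was lower in both, with -0.87 and -1.15. Of 20 genes of germ layers and germ cells, 13 were at 0 in the HeyC2 control and 11 in the SKOV3 control. In HeyC2 3 of them passed and all 3 were lower, with a median of -0.82 that was between -1.01 and -0.25 over the alternatives, and in SKOV3 5 passed, with 1 higher, 1 lower and a median of 0.21 that was between -0.35 and 0.47 over the alternatives. The gene called higher in SKOV3, FOXA2, passed only through the TET1 library. SOX17, an endoderm and Müllerian factor, was lower in both lines, with -1.20 and -1.09. GATA6 had opposite signs, with -0.61 in HeyC2 and 0.21 in SKOV3.

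**Figure D4:**
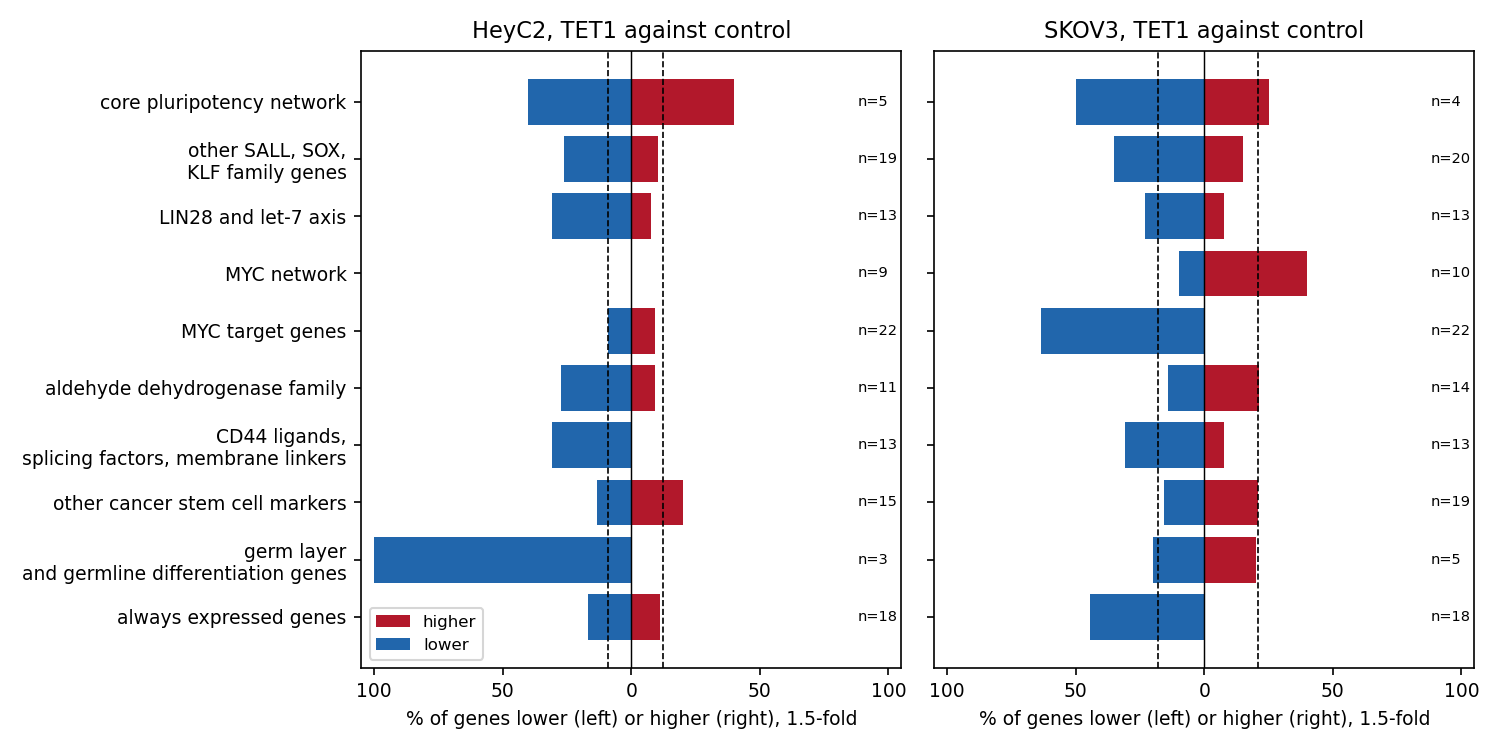
Percent of the genes of each list that were at least 1.5-fold lower (blue, left) or higher (red, right) in TET1 than in control relative to the all-gene median, with the number of genes that passed the filter; dashed lines give the percent of all genes called in that direction. In SKOV3 14 of 22 MYC target genes and 8 of 18 always expressed genes extend to the left, and the lists with under 6 genes have bars that rest on 1 to 3 genes.

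The control libraries were also compared with each other, which shows how the lines differ without TET1. The tables of the lines were made separately, and the median of all genes, 0.27 higher in SKOV3, was again subtracted. Of 4 members that passed, POU5F1 and MYC were called higher in SKOV3 and CD44 lower, while 28.6% of the 12488 genes tested were higher and 29% lower, 57.6% in all. Without the subtraction 4726 genes were higher and 2736 lower, and in TPM 4982 and 2796, against 3575 and 3619. At 2-fold the same 3 members were called, with 36.4% of all genes. CD44 was 5.34-fold lower in SKOV3 (interval 5.14 to 5.55), with a relative log2 difference of -2.40. MYC was 2.11-fold higher (1.93 to 2.30), and 17 of 22 MYC targets were called higher in SKOV3 and 0 lower, with a median of 0.95. KLF4 was at -0.52 and was not called. POU5F1 passed only through the SKOV3 control, at 2.24 FPKM against 0 in the HeyC2 control, where 3 fragments would be worth 0.32 FPKM. Its calls at 1.5-fold and at 2-fold were thus fixed by its passing. That 0 also carries the doubt given above with the processed copies.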

How the data were processed

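RNA-seq libraries of HeyC2 and SKOV3 cells, control and TET1, were paired-end sequenced from TruSeq RNA preparations. Per the labels, the authors aligned reads to hg19 with Bowtie2 2.2.6 and made FPKM with RSEM 1.2.17; the deposited FPKM come as 1 table per line, and the gene annotation and use of strand are not given in the sources used here. The GAPDH factor was recovered as the constant whose steps of 0.01 hold 100% of the distinct TET1 values under 40 FPKM, and was divided out before the pseudocount of 1 was added, since a pseudocount on the multiplied column would lower the relative change of weakly expressed genes. Members and gene lists were chosen with earlier results of these data known. The depth of a library was taken as the fragment total for which FPKM of 0.03 to 0.6 of single-transcript genes fall on whole fragments, with GENCODE lengths on GRCh37, which may differ from the authors' annotation, so fragments are approximate. Ratio intervals are exact binomial. Named genes were all members, TET1, GAPDH, up to 3 genes per list with the largest mean absolute change in both lines among those passing in both, and the 2 most similar profiles per member. Any other gene in the text was named after its values were seen. A further 10 alternatives of pseudocount, filter, scale and fold limit were run. The method was tested on simulated data. Python 3.11.15, numpy 2.4.6, pandas 2.3.3, scipy 1.17.1 and matplotlib 3.10.9 were used.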

Additional observations from a re-analysis of the deposited data

How the results depend on the processing

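No paired analysis was possible because, within a line, each comparison has 1 library per group and the labels carry no replicate numbers. A fit over both lines with the line as a block was not run. At a limit of 2-fold in place of 1.5-fold, 0 members were called in HeyC2 and 1 in SKOV3 (ALDH1A1), so the calls of CD44 in both lines and of MYC in SKOV3 rest on differences between 1.5-fold and 2-fold. The other 27 counts of called members were within 1.5 times the main count. A count does not show which members are called. In SKOV3 it stayed at 3 without the median subtracted and in TPM, while CD44 lost its call and POU5F1 gained one. Over all settings, the relative log2 change of CD44 ran from -0.96 to -0.82 in HeyC2 and from -0.71 to -0.44 in SKOV3, that of MYC in SKOV3 from -0.88 to -0.61, and that of ALDH1A1 in SKOV3 from 4.60 to 7.54, the highest with a pseudocount of 0.01. The median of the MYC targets in SKOV3 stayed between -0.84 and -0.56. Of 92 member values under the alternatives, 74 moved by at most 0.5 of the width of their counting interval (by at most 0.2 where there was none) and 18 by more. Of 229 list medians, 183 moved by at most 0.2 and 46 by more. The cause was not tested. Depth limits what can be said of NANOG, SOX2, SALL4, LIN28B and PROM1.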

Other observations

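Genes with the profile most like a member were sought over the 4 libraries, by the distance between centred log2(FPKM + 1) levels among 13089 genes with a mean of at least 1 FPKM. ALDH1A1 had few neighbours, with 1 gene within a distance of 0.25. This was NCAM2, a neural cell adhesion gene, at 0 and 0.06 FPKM without and with TET1 in HeyC2 and at 0.32 and 30.6 FPKM in SKOV3, and FOXS1 came next at a distance of 0.31. CD44 had 4 genes within 0.25, with ADGRE5 (the gene of the adhesion receptor CD97) nearest, at 31.6, 18.2, 7.11 and 4.15 FPKM in the same order, and ZNF185 next. POU5F1 had 22, with NPIPB3 and BMP2 nearest. MYC had 107 and KLF4 286, so their nearest genes, NUDT9 and LSM4 for MYC and NOV and SLC52A2 for KLF4, are not set apart from many others. With 4 points a close profile is easily met, and it is given as a description.

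The genes next to ALDH1A1 and CD44 did not share one direction. Of the genes within 1 Mb of ALDH1A1 on GRCh37, 6 passed the filter in SKOV3, with 2 called higher and 1 lower, relative log2 changes from -1.68 to 1.47 and a median of 0.12. The gene at 1.47, LINC01504, was at 0 in the SKOV3 control and 2.17 FPKM in SKOV3 TET1. It passed only through the TET1 library, so its call was fixed by its passing. The other gene called higher, ZFAND5, was at 0.60. Within 1 Mb of CD44, 8 genes passed in each line. Their relative log2 changes ran from -0.98 to 2.14 in HeyC2, with a median of -0.19, and from -0.98 to 0.93 in SKOV3, with a median of -0.27. Near ALDH1A3, 8 genes passed in SKOV3, with a median of 0.08.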
